A study of Rattus norvegicus with 9 samples.

Results

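miR-148a-3p and miR-152-3p are mature microRNAs of 1 seed family, which also holds miR-148b-3p. They were taken from the matrix of counts by name, and both were found, 2 of 567 miRNAs in all. They were chosen because their levels in these same libraries step down across the groups, so their levels and differences between groups are given as a description, without a test. Small RNA was sequenced from serum of adult male Wistar rats, labelled wild type, in 9 libraries. The study used rotenone, a pesticide that blocks complex I of the mitochondrial respiratory chain, injected into the peritoneum, to model early and late Parkinson's disease. Of the libraries, 3 came from control rats (Control), 3 from rats given 2.0 mg per kg per day for 10 days (EPD, early) and 3 from rats given it for more than 40 days up to a terminal stage (LPD, late). The treatment label and protocol are worded alike for all 9 samples and name rotenone for every group, and what the control rats received is not stated. The titles name separate samples, but nothing ties each library to 1 animal, so the spread between libraries may in part be technical. The titles also do not say whether the EPD and LPD libraries came from different rats.

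A microRNA guides the silencing complex to messenger RNAs through its seed, bases 2 to 8 from the 5′ end, which pair with sites in the target. Members of this family are known from human and rodent cells as repressors of DNMT1, the enzyme that copies DNA methylation to new strands. miR-148a is also abundant in liver, where it represses the receptor for low-density lipoprotein. miR-152 lies within Copz2 and miR-148b within Copz1, genes for subunits of the coatomer of transport vesicles, each on the strand of its host gene in the RefSeq annotation, whereas no gene of that annotation contains miR-148a.

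The sequences are shown because they define the family and set how far its members can be told apart by reads. They are RefSeq sequences of the GRCr8 assembly, with the seed in capitals. The authors' build, per the submitters' processing notes, was mRatBN7.2, and the deposited counts carry no coordinates. miR-148a-3p lies at chr4:81664447-81664467 on the minus strand, miR-152-3p at chr10:82329435-82329455 on the plus strand, and miR-148b-3p, the remaining relative with this seed, at chr7:136299930-136299951 on the plus strand.
miR-148a-3p: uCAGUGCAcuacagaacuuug
miR-152-3p: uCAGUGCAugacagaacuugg
miR-148b-3p: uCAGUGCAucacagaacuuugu
The seed is the same in all 3. Counted from 1 at the 5′ end, miR-148a-3p and miR-152-3p were identical at 18 of 21 bases, with the differences C9U, U10G and U20G (miR-148a-3p base first). miR-148a-3p and miR-148b-3p were identical at 19 of 21 compared bases, with C9U and U10C. Of the 567 miRNAs, 513 had a sequence in the RefSeq table, and these 3 were the ones among them that carried the seed. Reads of the 3 are separated by bases 9, 10 and 20, and the rule by which reads with a mismatch there were assigned is not given in the sources used here.

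Opposite arms of the hairpins, which carry other seeds, were counted as well and are used below.
miR-148a-5p: aAAGUUCUgagacacucugacuc
miR-152-5p: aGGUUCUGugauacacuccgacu

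The libraries differed in depth in step with the late group. Control libraries held between 1108167 and 1539557 counts, EPD libraries between 1136537 and 1668807, and LPD libraries between 132609 and 305019. Fewer miRNAs were detected in LPD: 184, 153 and 197, against 424 to 481 in Control libraries and 438 to 457 in EPD libraries. Fewer had small counts as well. Between 150 and 157 miRNAs had 1 to 9 counts in a Control library and between 127 and 155 in an EPD library, but 3, 9 and 39 in the LPD libraries.

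miR-148a-3p, the major form of the family in this serum, stood lower in each later group. The level printed is CPM, counts scaled to a common library size with a TMM factor for each library. The factors assume that most miRNAs do not differ between libraries, and differences in composition remain. miR-148a-3p had 24817, 18172 and 15866 CPM in the Control libraries, 13436, 12082 and 15485 CPM in EPD, and 7204, 7783 and 6725 CPM in LPD. The groups did not overlap, but the highest EPD library lay only 381 CPM below the lowest Control library, while LPD lay 4299 CPM below the lowest EPD library. Means were 19618 ± 4647 CPM in Control, 13668 ± 1713 in EPD and 7237 ± 530 in LPD (SD, n = 3 each). The LPD libraries were the closest together.

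In raw counts miR-148a-3p had 30475, 14225 and 27486 in Control, 19665, 15683 and 24664 in EPD and 2175, 1730 and 1020 in LPD. By rank of abundance within its own library, which needs no scaling, it stood at 10, 11 and 14 in Control, at 19, 19 and 15 in EPD and at 25, 24 and 28 in LPD. The ranks fall in the same order as the scaled levels, without overlap. Its share of all counts in Control was 2.75% (Wilson interval at 95%, 2.72 to 2.78%), 1.21% (1.20 to 1.23%) and 1.79% (1.76 to 1.81%). In EPD the share was 1.18% (1.16 to 1.19%), 1.38% (1.36 to 1.40%) and 1.54% (1.52 to 1.56%), and in LPD 0.713% (0.684 to 0.744%), 0.824% (0.786 to 0.864%) and 0.769% (0.724 to 0.818%). By share, Control 2 fell among the EPD libraries, and the LPD libraries lay below all others. These intervals take each read as a separate molecule. Where reads repeat molecules they are too narrow even for counting error, most of all in LPD, as estimated below.

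The log2 fold change of miR-148a-3p was -0.52 (SE 0.24) in EPD against Control, -1.44 (SE 0.25) in LPD against Control and -0.92 (SE 0.25) in LPD against EPD. On the linear scale LPD stood 2.71-fold below Control and 1.89-fold below EPD, and EPD 1.44-fold below Control. Without Control 1, its highest library, the early difference was -0.27. In bulk serum, fewer cells that release a miRNA, less release per cell and faster removal cannot be told apart.

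miR-152-3p, whose host gene Copz2 encodes a coatomer subunit, stepped down in the same order from a lower level. It had 3745, 2451 and 3166 CPM in Control, 1286, 1733 and 1884 CPM in EPD, and 957, 549 and 877 CPM in LPD. No library of a later group reached the level of any library of an earlier one, with 567 CPM between EPD and Control and 329 CPM between LPD and EPD. Means were 3121 ± 648 CPM in Control, 1634 ± 311 in EPD and 794 ± 216 in LPD (SD, n = 3 each). Both steps between means, 1486 and 840 CPM, exceeded the larger SD of the groups they join. The choice of miR-152-3p for its levels makes such steps likely, so nothing is read from this.

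In raw counts miR-152-3p had 4599, 1919 and 5485 in Control, 1882, 2250 and 3001 in EPD and 289, 122 and 133 in LPD. Its rank of abundance was 43, 49 and 43 in Control, 66, 53 and 52 in EPD and 60, 77 and 68 in LPD. By rank Control stood apart, while EPD 1 at 66 overlapped the LPD libraries. The log2 fold change was -0.93 (SE 0.32) in EPD against Control, -1.97 (SE 0.33) in LPD against Control and -1.04 (SE 0.33) in LPD against EPD. LPD thus stood 3.93-fold below Control and 2.06-fold below EPD, and EPD 1.91-fold below Control.

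**Figure D1:**
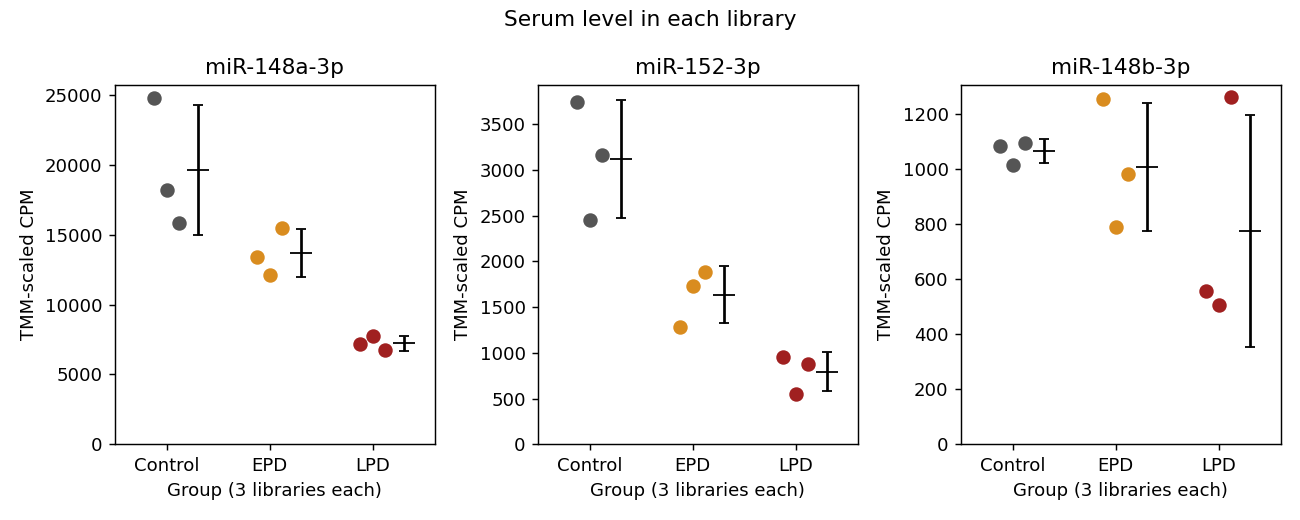
TMM-scaled CPM of miR-148a-3p, miR-152-3p and miR-148b-3p in each library (points) of Control, EPD and LPD, with the mean and SD of 3 libraries at the right of each group. miR-148a-3p and miR-152-3p step down without overlap (means 19618, 13668 and 7237 CPM, and 3121, 1634 and 794 CPM), while the miR-148b-3p groups overlap.

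The counts of members whose groups do not overlap stand against a background that is high in the late group. Of the 294 miRNAs tested, 8.16% lay lower without overlap in EPD against Control, 41.8% in LPD against Control and 45.6% in LPD against EPD, and both members did so in each comparison. A full order, with LPD below EPD and EPD below Control in every library, was shown by 4 of 294 miRNAs (1.36%). Of the 124 tested miRNAs with counts in all 9 libraries it was shown by 2 (1.61%), which are miR-148a-3p and miR-152-3p, and the opposite order was shown by 0 of 294. The members were chosen for this order, so nothing is read from these counts. In size their fold changes were not extreme. Counted from the lowest log2 fold change among those 124, miR-148a-3p stood at position 27 and miR-152-3p at 16 in LPD against Control, at 41 and 37 in LPD against EPD, and at 23 and 10 in EPD against Control. The median log2 fold change of the 124 was -0.21, -0.09 and 0.01 in those comparisons.

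The late step stayed without overlap in each way of scaling tried, by a narrow gap for miR-152-3p in some, and the early step did not. LPD lay below Control and below EPD without overlap, for both members, with TMM, with library totals, with totals after removing the hepatocyte miRNA miR-122-5p, with median-of-ratios factors and as a ratio to miR-23a-3p, a miRNA used as a serum reference. Under these scalings between 36.1 and 44.9% of the 294 miRNAs lay lower without overlap in LPD against Control and between 42.2 and 45.6% in LPD against EPD, so many miRNAs did the same. With median-of-ratios factors the highest LPD library of miR-152-3p stood at 783 scaled counts and the lowest EPD library at 815. With totals without miR-122-5p these stood at 1047 and 1140 CPM. EPD lay below Control without overlap with TMM, median-of-ratios factors and totals without miR-122-5p, but overlapped Control with library totals and with the ratio to miR-23a-3p, for both members. The share of all 294 that lay lower without overlap in EPD against Control was 8.16% with TMM, 10.5% with median-of-ratios factors, 16.3% with totals without miR-122-5p, 4.76% with library totals and 3.74% with the ratio. With library totals, miR-148a-3p ran from 11784 to 15389 CPM in EPD, against 12147 to 27500.4 CPM in Control, and miR-152-3p from 1128 to 1980 CPM in EPD, against 1639 to 4150 CPM in Control.

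miR-148b-3p, which shares the seed and was not chosen by the rule, did not show the steps. It had 1083, 1016 and 1095 CPM in Control, 1252, 790 and 981 CPM in EPD, and 556, 504 and 1259 CPM in LPD. LPD 3 held the highest value of the 9 libraries and LPD 1 and LPD 2 the lowest, so the groups overlapped. With totals after removing miR-122-5p its EPD libraries did lie below its Control libraries, at 915 to 1110.3 CPM in EPD, against 1218 to 1299 CPM in Control. Its log2 fold change was -0.08 (SE 0.41, adjusted p = 0.995) in EPD against Control, -0.46 (SE 0.41, adjusted p = 0.419) in LPD against Control and -0.39 (SE 0.41, adjusted p = 0.518) in LPD against EPD, by edgeR's quasi-likelihood test over 294 miRNAs. It passed in none of 18 alternatives (adjusted p from 0.0909 to 0.788 in LPD against Control and from 0.0939 to 0.903 in LPD against EPD). Without LPD 3 the log2 fold change was -0.78 in LPD against Control and -0.80 in LPD against EPD. Whether it differed from the 2 members in its change was not tested, since the members were chosen on these contrasts.

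Ratios within the family need no scaling between libraries. miR-152-3p had 3.46, 2.41 and 2.89 counts per count of miR-148b-3p in Control, 1.03, 2.19 and 1.92 in EPD and 1.72, 1.09 and 0.696 in LPD. All EPD and LPD libraries lay below all Control libraries, and EPD overlapped LPD. Since miR-152-3p was chosen for its fall across these libraries, the separation follows in part from the choice and is no finding. The mean ratio was 2.92 ± 0.523 in Control, 1.71 ± 0.610 in EPD and 1.17 ± 0.517 in LPD (SD, n = 3 each). In LPD 3 miR-152-3p was the rarer of the pair by counts, but both rested there on few molecules, as estimated below.

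miR-148a-3p had 6.63, 7.41 and 5.01 counts per count of miR-152-3p in Control, 10.4, 6.97 and 8.22 in EPD and 7.53, 14.2 and 7.67 in LPD. The means were 6.35 ± 1.22 in Control, 8.55 ± 1.76 in EPD and 9.79 ± 3.80 in LPD (SD, n = 3 each). LPD lay just above Control without overlap, EPD overlapped both, and LPD 2 held the highest ratio of all. The 3 miRNAs with this seed together took 2.33 ± 0.921% of the library in Control, 1.63 ± 0.214% in EPD and 0.937 ± 0.0753% in LPD. Within that sum miR-148a-3p made up 82.2 ± 2.90% in Control, 83.7 ± 0.892% in EPD and 82.2 ± 6.11% in LPD, so its share of the family moved by less than the spread between libraries. The counts compare reads, and ligation and amplification can favour 1 sequence over another, so a ratio between miRNAs is not a ratio of molecules.

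**Figure D2:**
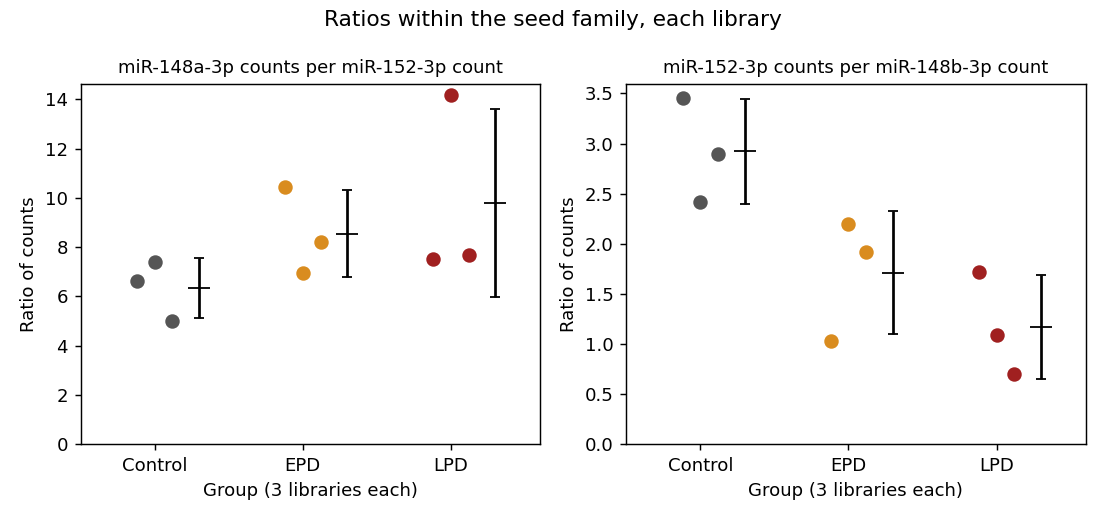
Counts of miR-148a-3p per count of miR-152-3p (left) and of miR-152-3p per count of miR-148b-3p (right) in each library of Control, EPD and LPD, with the mean and SD of 3 libraries. On the right all EPD and LPD libraries (at most 2.19) lie below all Control libraries (at least 2.41), which follows in part from the choice of miR-152-3p.

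The LPD values rested on few molecules. Estimated from how many miRNAs were detected, with the averaged profile of the other groups taken as given, counts per molecule came to at most 2.70 in any Control library and 2.73 in any EPD library, and to 36.7, 49.1 and 12.3 in LPD 1, LPD 2 and LPD 3. miR-148a-3p then rested on at least 5276 estimated molecules in every Control library, at least 9040 in every EPD library, and 59 in LPD 1 (Poisson interval at 95%, 44.9 to 76.1), 35 in LPD 2 (24.4 to 48.7) and 83 in LPD 3 (66.1 to 103). miR-152-3p rested on 8 (3.45 to 15.8), 2 (0.242 to 7.22) and 11 (5.49 to 19.7) molecules in those LPD libraries. For miR-148b-3p the estimates there were 5 (1.62 to 11.7), 2 (0.242 to 7.22) and 15 (8.40 to 24.7), with intervals that overlap those of miR-152-3p. In LPD 2 1 molecule stood for 221 CPM, so the spread of miR-152-3p among LPD libraries, 549 to 957 CPM, is of the size of a few molecules. In LPD 1, its highest LPD library, 1 molecule stood for 122 CPM. The lowest EPD library lay 329 CPM above, a gap likewise of the size of a few molecules. With counts divided by counts per molecule before the fit, LPD against Control stood at -1.34 for miR-148a-3p and -1.89 for miR-152-3p. The estimate assumes that serum of the late group had the profile of the others, and whether the low complexity of these libraries has a part in the late step was not tested. The smallest count above 0 was 1 in each LPD library, below its counts per molecule, so the estimate is rough for rare miRNAs.

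**Figure D3:**
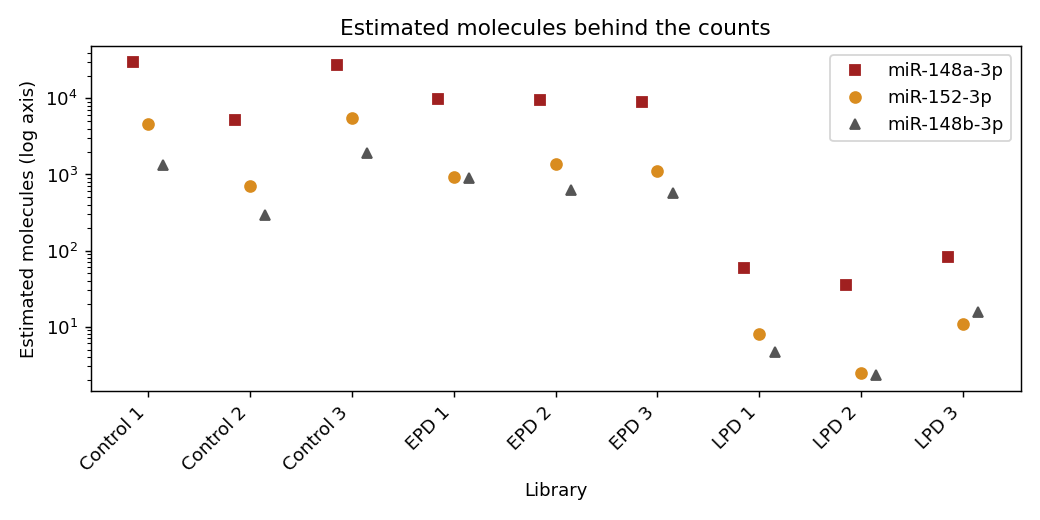
Estimated molecules (log axis) behind the counts of miR-148a-3p, miR-152-3p and miR-148b-3p in each of the 9 libraries. LPD libraries hold 35 to 83 molecules of miR-148a-3p and 2 to 11 of miR-152-3p, and all Control and EPD libraries hold more of both, at least 5276 and 712.

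The opposite arms were scarce, as is usual for the strand that is not loaded into the silencing complex. The miR-148a-5p counts were 32, 16 and 31 for the Control libraries, 18, 16 and 29 for EPD, and 0, 0 and 8 for LPD. It made up 0.110 ± 0.00440% of the counts of both arms in Control and 0.104 ± 0.0131% in EPD (SD, n = 3 each), so the share of the arms moved by less than the spread between EPD libraries while the level of miR-148a-3p stood lower in EPD. In LPD 1 and LPD 2 a count of 0, taken to allow 3 counts, allows up to 0.138% and 0.173%, above the Control share. At 36.7 and 49.1 counts per estimated molecule there, the limits in molecules are wider. The 8 counts of LPD 3 came to less than 1 estimated molecule. A detected miRNA rests on at least 1 molecule, so the average counts per molecule are only rough for a rare miRNA. A change of arm use was not detectable at this depth. miR-148a-5p did not pass in LPD against Control (adjusted p = 0.790, edgeR). Without LPD 3 it passed (adjusted p = 0.00697, and 0.00870 in LPD against EPD), with 0 counts in both LPD libraries that were left.

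miR-148b-5p had 22, 11 and 31 counts in Control, 61, 18 and 27 in EPD and 0 in each LPD library. It was called lower in LPD against Control (adjusted p = 0.00828, edgeR) and against EPD (adjusted p = 0.00650). Both calls were lost on counts per molecule (adjusted p = 0.511 and 0.488). In LPD 1 molecule was worth 81.3 to 221 CPM, against a level of 14.1 to 17.9 CPM in Control, and no fold is given. miR-152-5p had 8, 2 and 6 counts in Control, 5, 3 and 4 in EPD and 0 in each LPD library, too few to test.

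Other miRNAs known from human or mouse cells to repress DNA methyltransferases were followed as a list of 12, of which 10 could be tested. The list holds the miR-29 family and miR-143-3p and miR-101 (known repressors of DNMT3A or DNMT3B), and miR-185-5p, miR-342-3p, miR-126a-3p, miR-377-3p, miR-217-5p and miR-140-5p, with DNMT1 as a reported target. In EPD against Control 0 of 10 passed, beside 0.0% of all 294 miRNAs with edgeR. An unadjusted p under 0.05 was reached by 11 of the 294 (3.74%), and adjusted calls numbered 1 with DESeq2 and 0 with limma-voom. The median log2 fold change of the 10 was 0.02, against -0.05 over all tested. In LPD against Control 5 of 10 were called lower and 0 higher, beside 32.7% of all tested called lower and 4.42% called higher. The median of the 10 was -1.28, against -1.04. In LPD against EPD 5 were called lower and 1 higher, beside 32.7% and 4.08%, with a median of -1.28, against -0.92. Of the other 2, miR-377-3p and miR-217-5p had too few counts to test.

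In this list the miR-29 family, repressors of collagens as well as of DNA methyltransferases, had its 3 members called lower in LPD against EPD. miR-29a-3p had 20516, 60674 and 36362 CPM in Control, 49234, 64700 and 60162 CPM in EPD and 8771, 9115 and 15131 CPM in LPD. EPD overlapped Control, and LPD lay below all others. Its log2 fold change was 0.57 (SE 0.40, adjusted p = 0.995) in EPD against Control, -1.83 (SE 0.41, adjusted p = 0.00828) in LPD against Control and -2.40 (SE 0.42, adjusted p = 0.00576) in LPD against EPD, and both late calls held in all 18 alternatives. miR-29b-3p stood at -1.72 (adjusted p = 0.0308) in LPD against Control, lost without Control 2, LPD 1 or LPD 2 (adjusted p 0.0578 to 0.101) and with library totals, only the 2 groups compared or counts per molecule (0.0605 to 0.104), and at -2.56 (adjusted p = 0.00791) in LPD against EPD. miR-29c-3p fell by 2.29 on the log2 scale in LPD against EPD (adjusted p = 0.0293), which was lost without EPD 2, EPD 3, LPD 1 or LPD 2 (0.0613 to 0.0885) and with limma-voom (0.0908), and did not pass against Control (adjusted p = 0.0790), where it passed without Control 1 (0.0155).

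miR-140-5p, best known from cartilage, had 1511, 539 and 1527 CPM in Control, 866, 630.2 and 627 CPM in EPD and 215, 193 and 52.7 CPM in LPD, with LPD below all others. Its log2 fold change was -2.94 (SE 0.62, adjusted p = 0.00658) in LPD against Control and -2.19 (SE 0.60, adjusted p = 0.0198) in LPD against EPD, the second lost without EPD 1 (0.0836) and with limma-voom, only the 2 groups compared or counts per molecule (0.0542 to 0.0726). miR-342-3p, a leukocyte miRNA, stood at -0.89 (adjusted p = 0.0308) in LPD against Control, lost in 14 of 18 alternatives, 6 of them leaving out Control 1, Control 3, EPD 1 or any LPD library (0.0592 to 0.116) and 8 other settings (0.0785 to 0.157), and at -1.01 (adjusted p = 0.0197) in LPD against EPD, lost in 9 of 18, without EPD 1 or any LPD library (0.0529 to 0.0753) and in 5 other settings (0.0535 to 0.117). miR-185-5p stood at -1.66 (adjusted p = 0.0429) in LPD against Control, which was lost in 16 of 18 alternatives, among them leaving out any library but LPD 2 (0.0543 to 0.208), and did not pass in LPD against EPD (adjusted p = 0.0547), where it passed without LPD 2 (0.04995). miR-143-3p, from smooth muscle, was the member called higher: 39539, 37153 and 31382 CPM in LPD, against 15670, 18540 and 22428 CPM in EPD (log2 fold change 0.93, adjusted p = 0.0415), lost in 10 of 18 alternatives, among them leaving out any library but Control 2 or LPD 3 (0.0594 to 0.133).

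**Figure D4:**
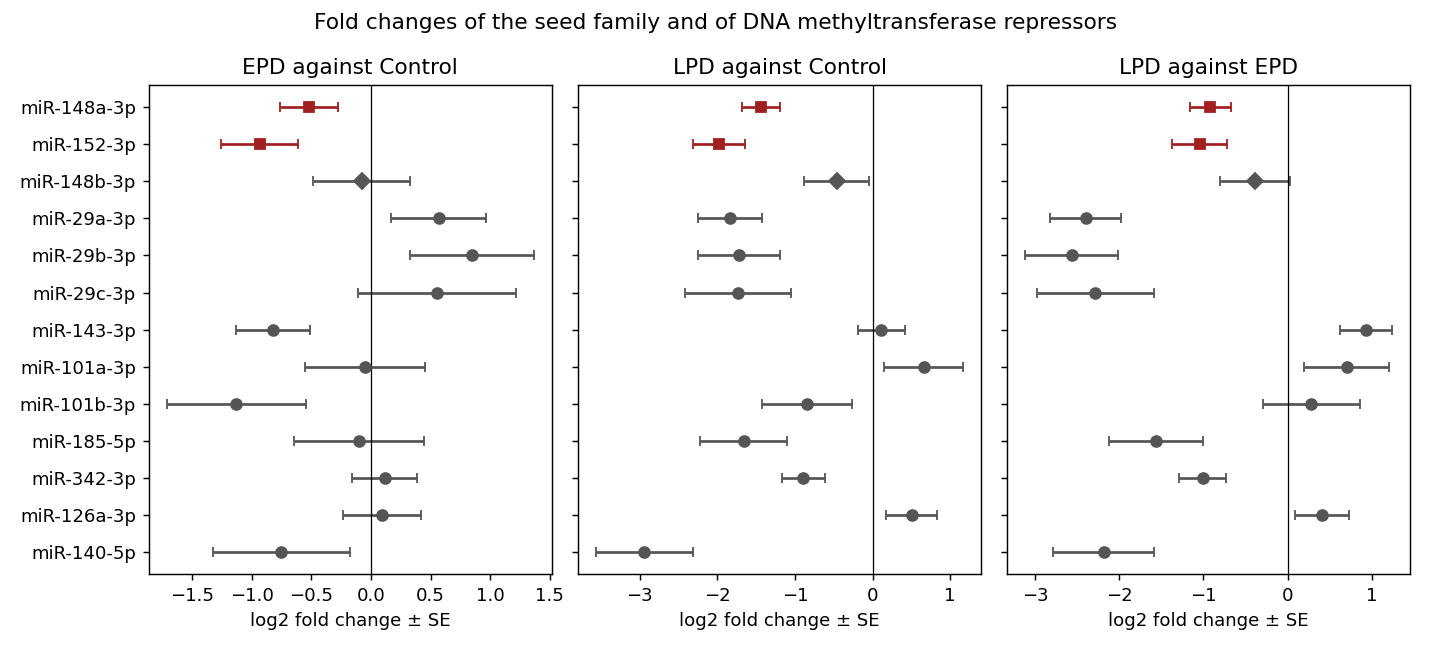
log2 fold change with SE from the edgeR fit for miR-148a-3p and miR-152-3p (squares), miR-148b-3p (diamond) and the 10 tested miRNAs of the DNA methyltransferase list (circles), in EPD against Control, LPD against Control and LPD against EPD. The squares lie left of 0 in all 3 panels, at -0.52 and -0.93 in the first and -1.44 and -1.97 in the second, while miR-29a-3p lies right of 0 in the first (0.57) and left of it in the second (-1.83).

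The miRNAs with the most similar profile were found by the mean absolute difference of log2 CPM over the 9 libraries, each miRNA centred on its own mean, among the 123 others with counts in every library. The members were chosen for their levels in these same libraries, so their likeness to each other follows from the choice and is no finding. For miR-152-3p the closest was miR-148a-3p, at 0.29 log2, against a median of 0.91 over the 123. Next came miR-19b-3p, a member of the oncogenic miR-17 clusters (0.33), miR-199a-3p of platelets and fibroblasts (0.37), miR-186-5p (0.45) and miR-28-3p (0.46), with miR-148b-3p at position 17 (0.61). For miR-148a-3p the closest were miR-186-5p (0.25), miR-27b-3p (0.26), miR-146b-5p (0.27), miR-342-3p (0.29) and miR-152-3p (0.29), against a median of 0.75, with miR-148b-3p at position 10 (0.39). The mean levels of miR-186-5p, at 702, 768 and 289 CPM in Control, EPD and LPD, and of miR-27b-3p, at 6784, 6918 and 3703 CPM, were not lower in EPD than in Control. All miRNAs of a library share its depth and composition, which enters every profile.

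Markers of cells that could add to serum miRNAs differed between libraries too, and those of hepatocytes had negative fold changes, against Control in part through Control 2. miR-148a is itself a liver miRNA. The 4 hepatocyte miRNAs had negative log2 fold changes in each comparison, 4 of 4, with medians of -1.35 in EPD against Control, -2.64 in LPD against Control and -0.94 in LPD against EPD. Of all 294 tested miRNAs, 156, 204 and 195 were negative in those comparisons, with medians of -0.05, -1.04 and -0.92. In LPD against EPD miR-122-5p hardly moved, at 22646 CPM in LPD and 22868 CPM in EPD on average (log2 fold change -0.01, adjusted p = 0.990, edgeR). Against Control it overlapped and was not called in EPD (adjusted p = 0.995, edgeR) or in LPD (adjusted p = 0.0568). miR-192-5p averaged 15396, 11167 and 7164 CPM in Control, EPD and LPD, with overlap in each comparison, LPD against Control included, and was not called. miR-194-5p averaged 1964, 1286 and 543 CPM, its LPD libraries below all others, and was not called (adjusted p = 0.0660 in LPD against Control, edgeR). miR-802-5p averaged 222 and 52.2 CPM in Control and EPD and had 0 counts in each LPD library. It was called lower in LPD against Control (adjusted p = 0.00948) and against EPD (adjusted p = 0.0236), the second lost without EPD 1, EPD 3, LPD 1 or LPD 2 (0.0522 to 0.0657) and both on counts per molecule (0.299 and 0.548). The Control means rest in part on Control 2, which held 662182 CPM of miR-122-5p, against 22284 and 45708 CPM in the other Control libraries, and 30539.9 CPM of miR-192-5p, against 6137 and 9511 CPM. The 4 summed to 29521, 696990 and 56409 CPM in Control, 21043 to 56412 CPM in EPD and 21543 to 46856 CPM in LPD. In Control 2 miR-148a-3p, at 18172 CPM, lay between the other Control libraries, and miR-152-3p, at 2451 CPM, was the lowest of them.

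The 4 platelet miRNAs summed to 108504 to 136482 CPM in Control, 109996 to 205373 CPM in EPD and 66450 to 104264 CPM in LPD, none at 0, but did not move one way. In LPD against Control miR-191a-5p was called lower, at 9896 CPM in LPD and 49934 CPM in Control on average (adjusted p = 0.00522), and so was miR-199a-3p, at 11213 and 39039 CPM (adjusted p = 0.00522), both in all 18 alternatives. miR-223-3p, a myeloid and platelet miRNA, was called higher, at 49559 CPM in LPD and 21959 CPM in Control (adjusted p = 0.0418), lost in 8 of 18 alternatives, among them leaving out any library but Control 2, EPD 1 or LPD 3 (0.0515 to 0.138) and only the 2 groups compared (0.111). miR-126a-3p averaged 14794 CPM in LPD and 10449.8 CPM in Control and was not called. In EPD against Control miR-199a-3p, at 11949 CPM in EPD and 39039 CPM in Control, lay lower without overlap, as the members did. It was not called (adjusted p = 0.179, edgeR), but was with DESeq2 (0.00013), over miRNAs counted in every library (0.0268) and without Control 2 (0.0483).

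Of the 5 miRNAs of smooth muscle and fibroblasts, miR-143-3p made up most of the sum, which was 27928 to 56203 CPM in Control, 18472 to 25604 CPM in EPD and 33815 to 45103 CPM in LPD. In EPD against Control 5 of 5 had negative fold changes, the members' direction, beside 156 of all 294 tested, and 0 were called. In LPD against Control the list was mixed. miR-145-5p stood at -2.08 and miR-199a-5p, at 0 in LPD 1, at -0.98, neither called, while miR-10b-5p was called higher, at 3030 CPM in LPD and 970 CPM in Control (adjusted p = 0.00610), and in LPD against EPD as well (adjusted p = 0.00591), both in all 18 alternatives. In LPD against EPD miR-145-5p lay lower without overlap (-1.48, adjusted p = 0.202). miR-214-3p was not called.

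The 5 red cell miRNAs summed to 84573 to 169287 CPM in Control, 153209 to 394876 CPM in EPD and 236026 to 372968 CPM in LPD, with none at 0. In LPD against Control 5 of 5 had positive fold changes, opposite in direction to both members, while 204 of all 294 tested were negative. Of these miR-486 was called higher in LPD against Control (2.18, adjusted p = 0.0264), lost without any 1 Control library or LPD 2 (0.0655 to 0.0796), and in LPD against EPD it passed only without EPD 1 (0.0219). miR-16-5p, the most abundant of them, miR-451-5p, miR-144-3p and miR-144-5p were not called. The 4 skeletal and heart muscle miRNAs, miR-1-3p, miR-133a-3p, miR-206-3p and miR-499-5p, ran from 1421 to 7653 CPM in Control, 333 to 4954 CPM in EPD and 715 to 10819 CPM in LPD, with miR-499-5p at 0 in LPD 1 and LPD 2 and miR-133a-3p at 0 in LPD 2, and 0 were called. The part of these cells in the levels of miR-148a-3p and miR-152-3p was not tested.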

How the data were processed

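The authors deposited raw counts of reads for each mature miRNA, in 1 matrix of 567 miRNAs and in 9 single files, between which 0 values differed. Per the labels' protocols, RNA came from a miRNeasy serum kit and libraries from the QIAseq miRNA kit. The submitters' processing notes name the build mRatBN7.2. Which aligner, counter and miRNA annotation were used, and whether molecular identifiers were collapsed, is not given in the sources used here. Groups and replicate numbers come from the sample titles.

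filterByExpr (minimum count 10, minimum total 15, by group) kept 294 miRNAs, which were scaled by TMM, and fitted over all 9 libraries with the robust quasi-likelihood model of edgeR 4.0.16 (R 4.3.3, limma 3.58.1, DESeq2 1.42.0), without covariates. The fit was tested on simulated data. p-values were adjusted by Benjamini-Hochberg over all tested miRNAs, with a threshold of 0.05. The groups share 1 estimate of the spread. Pairs of libraries within a group differed by at least 30.7 in chi-square per degree of freedom, so none was a copy of another's counts. The chi-square takes each read as a separate molecule. With many counts per molecule in LPD, it cannot show whether libraries there were repeats of the same sample. Named were the 2 members and their relatives, the DNA methyltransferase list (with values where called) and the 5 miRNAs of most similar profile for each member. Single cell markers were named after their values were seen. Lists were written from general knowledge, share miR-126a-3p and miR-143-3p, and were chosen, like the members, with earlier results of these data known. Molecules were estimated as the number that gives the detected miRNAs under the mean profile of the Control and EPD libraries, capped at 1 per count. A count of 0 was taken to allow 3 counts. Alternatives were other scalings, filters and tools, fits of the 2 groups compared, the replicate number as a block, each library left out, and, chosen after seeing the data, counts per molecule.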

Additional observations from a re-analysis of the deposited data

How the results depend on the processing

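All 120 recomputed log2 fold changes of miR-148a-3p and miR-152-3p (20 for each of the 6) stayed negative, and 116 moved by less than 1 SD between libraries. miR-148a-3p in LPD against EPD moved to -0.60 with DESeq2 size factors in edgeR and with DESeq2 itself and to -0.57 when only miRNAs counted in every library were fitted. With DESeq2 size factors the median of the 124 miRNAs counted in every library moved as well, to 0.17, against -0.09 with TMM, and relative to that median miR-148a-3p stood at -0.78, against -0.83 with TMM. With 1 library left out, miR-148a-3p ranged from -0.62 to -0.27 in EPD against Control, -1.61 to -1.14 in LPD against Control and -1.04 to -0.72 in LPD against EPD, and miR-152-3p from -1.03 to -0.71, -2.02 to -1.73 and -1.14 to -0.89.

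miRNAs called numbered 0 in EPD against Control, 109 in LPD against Control and 108 in LPD against EPD, with edgeR and all 294 miRNAs. DESeq2 called 1 in EPD against Control, and edgeR on the miRNAs counted in every library called 1, 38 and 35 in those comparisons. They numbered 52 and 67 with the 2 groups alone and 31 and 31 on counts per molecule in the late comparisons. With 1 library left out they ranged from 0 to 1 (1 without Control 2), 93 to 140 and 90 to 134. Fewer libraries or miRNAs enter some of these fits, and other causes were not tested.

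The correlations showed no clear pairing by replicate number, but could not settle it. Deviations of same-numbered libraries correlated by -0.10 to 0.08 over 9 pairs, and 5 of 9 libraries correlated best with their own number. Between EPD and LPD, same-numbered pairs correlated by 0.07, 0.04 and 0.04, and the other pairs by -0.08 to 0.05. The deposited column headers number the EPD and LPD libraries alike, and whether the same rats were sampled at both times is not stated there. The replicate block gave 0, 101 and 101 calls, and for miR-148a-3p and miR-152-3p fold changes of -1.42 and -1.99 in LPD against Control. It ended the calls of miR-143-3p in LPD against EPD (adjusted p = 0.0619, edgeR) and of miR-223-3p in LPD against Control (adjusted p = 0.0517).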
